A study of Mus musculus with 5 samples.

Results

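Cadherins are the calcium-dependent adhesion proteins that hold like cells together, and 10 of their genes (Cdh1, Cdh2, Cdh3, Cdh4, Cdh5, Cdh11, Cdh13, Cdh15, Cdh16 and Cdh17) were followed here through a dilution of newborn mouse RNA with adult colon RNA. They were taken by name from among 12393 genes that the array annotation pairs with at least 1 probe set of their own. All 10 were measured, by 15 probe sets in total, with no filter on signal. Each gene was represented by its probe set with the highest mean signal over the arrays, and Cdh5 by both of its probe sets, which gave 11 probe sets.

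RNA came from 2 pools, both of strain C57BL/6 and each combining several animals, namely whole pups aged 1 day and the colon of adults aged 8 weeks. The pools were mixed in colon shares of 0%, 25%, 50%, 75% and 100%. Of each mixture, 10 ng of total RNA was put through a double T7 amplification and hybridised to 1 Affymetrix MOE430 array, so there were 5 arrays and no replicate. The effects of tissue and age cannot be told apart, and the pup RNA held every organ, its own gut included, so no single newborn tissue was measured. Signals below are log2 values, always listed from 0% to 100% colon. A gene "rose" or "fell" when the regression of its signal on colon share passed limma's test at an adjusted p of 0.05, and its slope is the log2 difference fitted between pure colon and pure newborn RNA, positive where colon was higher.

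Most cadherins reach out of the cell with a chain of repeats stiffened by calcium and bind the same cadherin on the neighbouring cell, while a cytoplasmic tail holds beta-catenin and p120-catenin and, through alpha-catenin, the actin skeleton. Which cadherin a cell makes differs by tissue. Cdh1 (E-cadherin) is the general cadherin of epithelia, Cdh2 (N-cadherin) that of neural, heart and mesenchymal cells, and Cdh5 (VE-cadherin) that of endothelium. Cdh13 has no tail at all and is tethered by a lipid anchor, and Cdh16 and Cdh17 have a longer chain of repeats and a short tail that does not bind catenins.

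RNA signal differed between the adult colon and the whole newborn for some of the 10 cadherin genes, and no protein was measured. Cdh17 and Cdh1 gave the higher signal in colon, whereas Cdh16, Cdh11, Cdh5, Cdh2 and Cdh15 fell as colon replaced newborn RNA, with slopes of −2.12 to −1.47 log2. Cdh3, Cdh13 and Cdh4 differed by less than 2-fold between the undiluted arrays. Of all genes, each read by its brightest probe set, 14.5% fell and 24.3% were called in either direction (10.9% and 19.5% of all probe sets), beside the 5 of 10 cadherins that fell. None of the 10 rose past the adjusted threshold in limma, against 9.8% of all genes and 8.63% of all probe sets. At an unadjusted p under 0.05, Cdh1 and Cdh17 were the 2 that were higher with colon, a share near the 19.8% of all genes, and the same 5 were lower, against 21.5%. Their median slope was −0.97 log2, beside −0.01 over all genes.

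**Figure D1:**
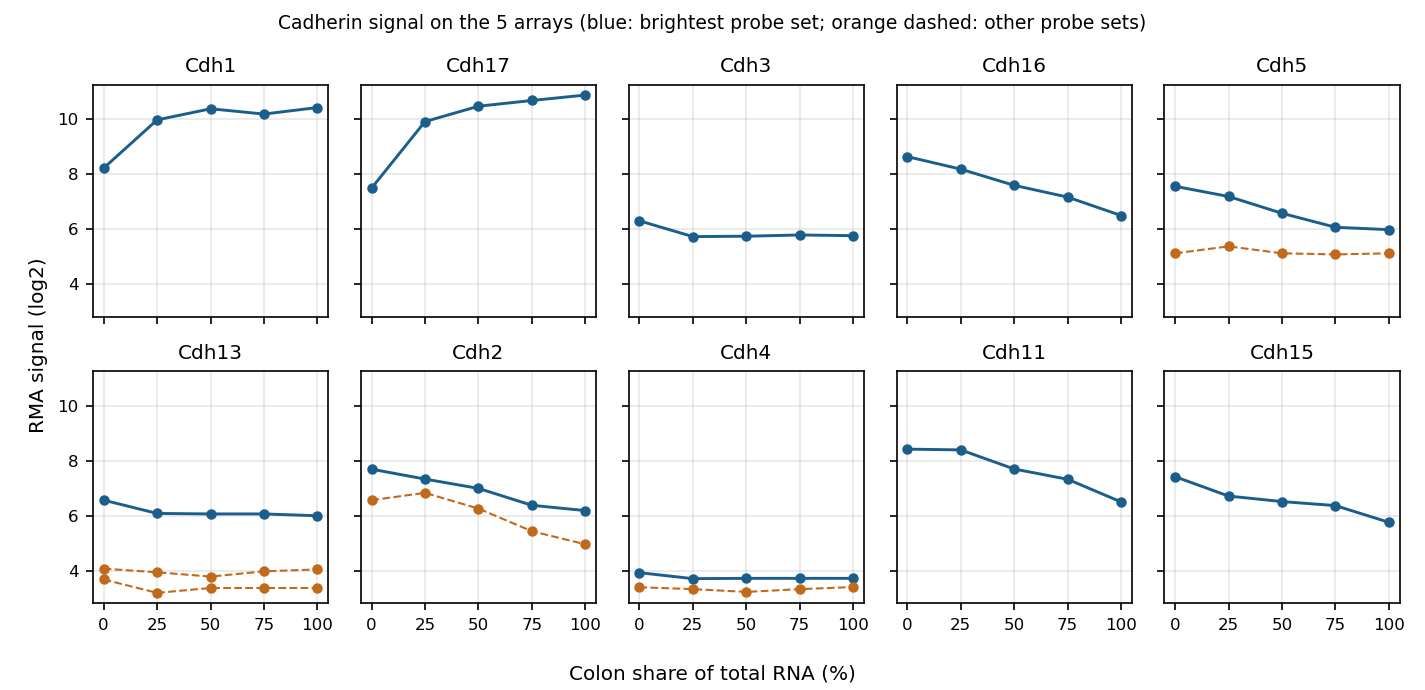
RMA signal (log2) of the 10 cadherin genes against the colon share of total RNA (%), 1 array per point. Solid blue lines are the brightest probe set of each gene and dashed orange lines its other probe sets. Cdh1 and Cdh17 climb mainly between 0% and 25% colon, and 5 genes decline over the whole series.

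By size alone, the undiluted arrays were at least 2-fold apart for 7 of the 10 genes. Colon was higher for 2 of these, against 9.26% of all genes (8.19% of probe sets), and whole mouse for 5, against 10.4% (7.79% of probe sets). The 5 values ran in strict falling order for the same 5 genes that fell, an order seen in 12.1% of all genes (9.0% of probe sets). Cdh17 alone of the 10 ran in strict rising order, which is near the background of 8.66% of all genes (7.42% of probe sets). In RefSeq's GRCm38.p6, 7 of the 10 genes lie on chromosome 8, among them the adjacent pair Cdh11 and Cdh5, both of which fell, and the adjacent pair Cdh3 and Cdh1, neither of which passed. In such bulk RNA, fewer cells of a type and less RNA per cell cannot be told apart.

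**Figure D2:**
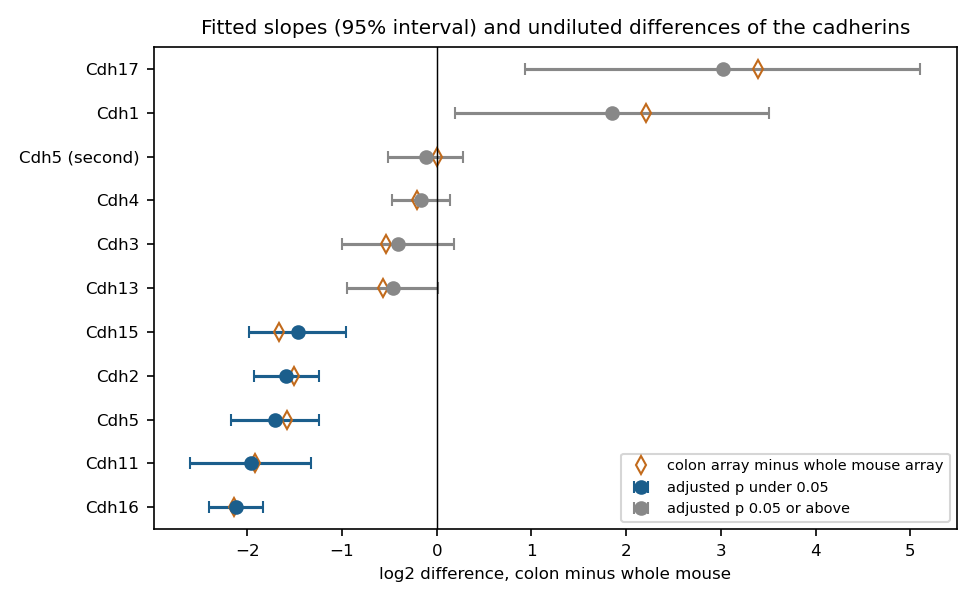
Slope of log2 signal on colon share for each cadherin probe set (points, with limma's 95% interval) and the difference between the undiluted arrays (open diamonds). Blue points passed an adjusted p of 0.05: Cdh16, Cdh11, Cdh5, Cdh2 and Cdh15. The intervals of Cdh1 and Cdh17 are the widest.

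Among the epithelial members, Cdh17, the liver-intestine cadherin of gut epithelium, had the largest difference. Its signals were 7.49, 9.91, 10.47, 10.68 and 10.88, so that every array with colon RNA lay above the newborn array by at least 2 log2. The undiluted arrays differed by 3.39 log2, or 10.5-fold, and the fitted slope was 3.02 (SE 0.81, 95% interval 0.93 to 5.11, adjusted p = 0.0611). Of that climb, 2.42 log2 came between 0% and 25% colon and 0.20 between 75% and 100%.

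Whether Cdh17 passed depended on the scaling and on which probe sets entered the adjustment. Its adjusted p was 0.0348 with the arrays centred on their medians, 0.0461 after probe sets with a mean signal under 6 were left out (the slope being the same), and 0.00617 when linear intensity was regressed in place of log2 signal. By construction, linear mixing of 2 pools does not give a straight line on the log2 scale. Of the 1853 probe sets at least 2-fold higher in colon, 63.2% passed on the log2 scale and 90.4% on linear intensity, whereas of 1763 higher in whole mouse these shares were 92.6% and 96.0%.

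Cdh1, the E-cadherin of adherens junctions throughout epithelia, had signals of 8.22, 9.98, 10.38, 10.19 and 10.43. The newborn array stood 1.76 log2 below the next lowest, and the 4 arrays with colon spanned only 0.45 log2. The undiluted difference was 2.21 log2 (4.61-fold), with a fitted slope of 1.85 (SE 0.64, 95% interval 0.19 to 3.51, adjusted p = 0.113). Cdh1 did not pass in any alternative fit that was run, its adjusted p on linear intensity being 0.0616. Without the newborn array the slope was 0.46, and that of Cdh17 was 1.24.

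Cdh3 (P-cadherin), made mainly by basal cells of stratified epithelia, lies directly beside Cdh1 on the chromosome, with no other protein-coding gene between them in RefSeq's GRCm38.p6. Unlike its neighbour it read 6.30, 5.73, 5.74, 5.79 and 5.76. The newborn array was the high one and the other 4 lay within 0.06 log2 of each other. The slope was −0.41 (95% interval −1.0 to 0.18, adjusted p = 0.292), and without the newborn array it was 0.06. Of 8 basal epidermis markers, 6 fell and 1 rose, against 14.5% and 9.8% of all genes. Their summed intensity was 13.75 log2 on the newborn array and 10.24 on the colon array. Keratins Krt14 and Krt5 had slopes of −5.67 and −4.95 log2, the galectin Lgals7 one of −5.6, and Sfn, an adaptor of keratinocytes, had a slope of −0.22 (adjusted p = 0.26). For Krt14, 2 of 3 probe sets passed. On the colon array Lgals7 read 5.19, within the range of the bacterial poly-A control probe sets (2.65 to 5.23). The size of its fall is therefore uncertain.

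Cdh16 (Ksp-cadherin), the kidney tubule member, had the steadiest decline. Its signals were 8.64, 8.18, 7.59, 7.17 and 6.5, with steps between neighbouring mixes of −0.46, −0.59, −0.43 and −0.67 log2. The slope was −2.12 (SE 0.11, 95% interval −2.41 to −1.84, adjusted p = 0.00373), a 4.35-fold fall, and the residual standard deviation of 0.07 log2 was the smallest among the 10 genes. It passed without each array in turn (adjusted p between 0.0249 and 0.0321). Cdh16 and Cdh17 share the long ectodomain and short tail, yet had the lowest and the highest slope of the 10 genes.

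Of 10 kidney markers measured, 3 fell and limma called none that rose (6 and 0 at an unadjusted p under 0.05, which 21.5% of all genes met falling and 19.8% rising). The endocytic receptor Cubn fell by 1.70 log2, uromodulin (Umod) fell by 1.23 and the phosphate transporter Slc34a1 had a slope of −1.0 (adjusted p = 0.0125). The other Umod probe set had a slope of −0.22 and did not pass. At 75% and 100% colon the brighter one (4.90 and 4.50) lay within the poly-A control range, so the size of its fall is uncertain. Kap, an androgen-regulated tubule protein, was 8.45 on the newborn array and 7.93 on the colon array (adjusted p = 0.312), and its other probe set fell by 1.28. The summed intensity of the kidney markers was 10.61 log2 in the newborn and 9.85 in colon. The part of such shifts in cell type makeup, here and for the lists that follow, in the cadherin values was not tested.

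Among vascular members, Cdh5, the adhesion protein of endothelial junctions, was read by 2 probe sets that differed. The brighter one gave 7.56, 7.19, 6.58, 6.07 and 5.98, falling on each array down to a colon value close to that of the 75% mix. Its slope was −1.71 (SE 0.18, 95% interval −2.18 to −1.25, adjusted p = 0.00791), a 3.27-fold fall, and without the newborn array it was −1.65 with an adjusted p of 0.0582. The dimmer one gave 5.12, 5.37, 5.12, 5.08 and 5.12. Those values spanned 0.29 log2, with 3 arrays holding 1 tied value, and the slope was −0.12 (95% interval −0.51 to 0.28, adjusted p = 0.667). Probe sets for bacterial poly-A controls reached 5.23, so the dimmer signal lay around the top of their range.

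Of 15 endothelial markers, 9 fell and limma called none that rose, against 14.5% and 9.8% of all genes. At an unadjusted p under 0.05 the counts were 11 and 0, against 21.5% and 19.8%. The list had a median slope of −1.09 and a summed intensity of 12.82 log2 in the newborn and 11.48 in colon. The tight-junction protein Cldn5 had a slope of −3.13, the adhesion molecule Icam2 one of −2.48 and the transcription factor Sox18 one of −1.80. Plvap, of fenestrated endothelium, read 8.64 and 8.82 on the undiluted arrays (adjusted p = 0.598).

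Cdh13 (T-cadherin), the lipid-anchored member and a receptor for adiponectin in heart and vessels, read 6.57, 6.08, 6.07, 6.07 and 6.00. Again the newborn array stood above 4 nearly level ones, which spanned 0.08 log2. The slope was −0.46 (95% interval −0.94 to 0.02, adjusted p = 0.156), and without the newborn array it was −0.10 (adjusted p = 0.544). Its other probe sets read between 3.19 and 4.07, within the range of the poly-A controls (2.65 to 5.23), with slopes of −0.01 and −0.18.

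Cdh2, the N-cadherin of neural tube, heart and migrating mesenchyme, gave 7.70, 7.33, 7.0, 6.38 and 6.19. All steps were downward, the largest (−0.62 log2) between 50% and 75% colon. The slope was −1.59 (SE 0.13, 95% interval −1.93 to −1.24, adjusted p = 0.00542), a 3.01-fold fall, and it passed without each array in turn (adjusted p between 0.0285 and 0.0402). The second probe set fell by 1.84 log2 (adjusted p = 0.0282), with 6.57, 6.83, 6.26, 5.44 and 4.96, its highest value being that of the 25% mix.

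Neural markers fell in 6 of 10 cases, with none called as rising by limma, against 14.5% and 9.8% of all genes. At an unadjusted p under 0.05 the counts were 8 and 0, against 21.5% and 19.8%. Doublecortin (Dcx), of migrating neurons, had a slope of −3.74 log2 (1 of its 4 probe sets passed), neuronal tubulin Tubb3 one of −3.50 and the neurofilament Nefm one of −2.82. On the colon array Dcx (4.98) and Tubb3 (4.95) lay within the poly-A control range, so the sizes of both falls are uncertain. Elavl3, a neuronal RNA-binding protein, read 8.31 in the newborn and 6.98 in colon (adjusted p = 0.0632). Summed intensity of the neural markers was 12.08 and 9.60 log2. Cdh4 (R-cadherin), a relative of Cdh2 found in retina and brain, was near the floor of the arrays with 3.93, 3.71, 3.72, 3.72 and 3.72. These lie within the poly-A control range, so a difference in Cdh4 was not detectable (slope −0.16, 95% interval −0.47 to 0.15, adjusted p = 0.423).

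Cdh11, the mesenchymal and osteoblast cadherin, had signals of 8.42, 8.40, 7.70, 7.33 and 6.5. The newborn array and the 25% mix were nearly equal (0.03 log2 apart), and the undiluted colon array was the lowest by 0.82. The slope was −1.96 (SE 0.25, 95% interval −2.60 to −1.33, adjusted p = 0.0113), a 3.90-fold fall. Without the colon array it was −1.59 with an adjusted p of 0.0755. Of 11 mesenchyme and bone markers, 8 fell and limma called none that rose, against 14.5% and 9.8% of all genes. At an unadjusted p under 0.05 the counts were 9 and 0, against 21.5% and 19.8%. Among those that fell were bone sialoprotein Ibsp (−5.13), the limb mesenchyme factor Prrx1 (−3.46) and type I collagen Col1a1 (−3.40). For Prrx1, 1 of 4 probe sets passed. On the colon array Ibsp (3.375) and Prrx1 (4.65) lay within the poly-A control range, so the sizes of both falls are uncertain. The matrix protein Postn read 11.02 and 10.44 (adjusted p = 0.0965), and the summed intensity of the list was 15.09 log2 in the newborn and 13.41 in colon.

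Cdh15 (M-cadherin), of muscle precursor cells and young fibres, read 7.42, 6.72, 6.51, 6.37 and 5.76. The drop was steepest at both ends, −0.70 log2 from 0% to 25% colon and −0.61 from 75% to 100%. The slope was −1.47 (SE 0.20, 95% interval −1.98 to −0.96, adjusted p = 0.0131), a 2.77-fold fall. It was −1.21 with an adjusted p of 0.0741 without the newborn array, and −1.34 with 0.102 without the colon array.

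Of 12 skeletal muscle markers, 6 fell and limma called none that rose, against 14.5% and 9.8% of all genes. At an unadjusted p under 0.05 the counts were 9 and 0, against 21.5% and 19.8%. The creatine kinase Ckm had a slope of −4.6 log2, the differentiation factor myogenin (Myog) one of −3.37 and the acetylcholine receptor subunit Chrna1 one of −3.02. Acta1, the actin of skeletal muscle fibres, read 13.95 on the newborn array, 12.91 in the 75% mix and 6.63 on the colon array (adjusted p = 0.115). Summed intensity of the muscle markers was 15.37 log2 in the newborn and 11.63 in colon.

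RefSeq's promoter table matched 1 of the 10 genes, Cdh15. Its promoter is shown because the sites bound by myogenic factors such as myogenin are E-boxes. The stretch is chr8:122848124-122848423 on the plus strand of GRCm38.p6, 250 bases before to 50 bases after the gene's start. Capitals mark the E-box pattern CANNTG, where N is any base, so E-boxes of every kind are marked. The pattern reads the same on both strands, though a single match need not.
Cdh15 promoter: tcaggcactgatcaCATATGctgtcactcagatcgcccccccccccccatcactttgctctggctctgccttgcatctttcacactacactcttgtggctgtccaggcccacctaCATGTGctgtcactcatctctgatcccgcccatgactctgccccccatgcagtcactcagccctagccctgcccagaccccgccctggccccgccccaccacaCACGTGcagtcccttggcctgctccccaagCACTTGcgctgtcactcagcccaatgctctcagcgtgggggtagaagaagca
It held 4 E-boxes, none overlapping another, which begin at positions −236, −135, −32 and −2 from the start site. At least 1 E-box was found in 72.3% of the 32851 promoters of that length, and at least 4 in 6.5%. A match of letters is a description and not a binding site.

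The values of the mixtures were also set against linear mixing, as a description, since the same 5 arrays enter the slopes. Linear mixing was computed as the share-weighted mean of the undiluted intensities, and deviations from it are in log2. Cdh1 lay 0.83 above it at 25% colon, 0.67 at 50% and 0.08 at 75%. The first of these exceeded the 95th percentile of probe sets at least 2-fold higher in colon, 0.81, and so did that at 50%, where the percentile was 0.57. Cdh17 lay 0.67, 0.46 and 0.17 above linear mixing, inside those bounds.

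As an apparent colon share, Cdh1 stood at 65.8% in the 25% mix, 96.1% in the 50% mix and 80.6% in the 75% mix. Cdh17 gave 46.0%, 72.9% and 85.8%. The medians over all probe sets at least 2-fold higher in colon were 43.1%, 62.6% and 73.2%, so the class medians also lay above the mixed share at 25% and 50% and below it at 75%. Hybridisation control probe sets were also brighter on the 25% array, with a median of 9.94 against 9.02 to 9.35 on the others. Their part in these values was not tested.

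Of the 5 genes that fell, Cdh2, Cdh5, Cdh15 and Cdh16 lay below linear mixing at all 3 mixes by their brightest probe sets. That was usual for probe sets at least 2-fold higher in whole mouse, whose median deviations were −0.15, −0.22 and −0.14 and of which 29.3%, 17.6% and 27.5% lay above 0. Cdh11 was 0.27 above it at 25% colon, an apparent share of 2.6%, while Cdh15 was 0.43 below, an apparent share of 56.5%. Cdh5 deviated most at 75% (−0.49) and Cdh2 there too (−0.35). Cdh16 stayed between −0.15 and −0.34. The standard deviation over the 1763 probe sets at least 2-fold higher in whole mouse was 0.27 to 0.28. By their brightest probe sets, all 5 genes lay within the 5th to 95th percentile of that class at every mix. The second probe set of Cdh2 did not, lying 0.53 above linear mixing at 25% colon and 0.28 above at 50%. The 95th percentiles there were 0.33 and 0.23. At 75% its deviation was −0.12.

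**Figure D3:**
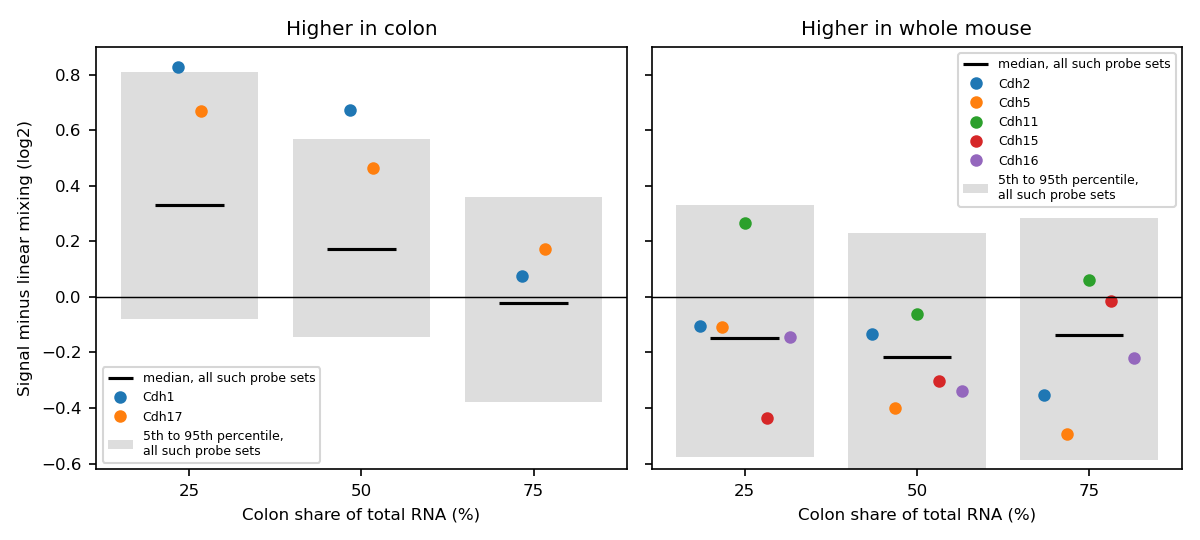
Log2 signal minus the value of linear mixing against the colon share (%), for the 2 cadherins at least 2-fold higher in colon (left) and the 5 higher in whole mouse (right). Grey bars span the 5th to 95th percentile of all probe sets of the same class and black lines are their medians. Cdh1 lies above the bar at 25% and 50% colon, and the other points lie inside.

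Of the 3 genes under 2-fold, Cdh3 and Cdh13 shared a shape in which the newborn array stood 0.55 and 0.51 log2 above the mean of the other 4. For Cdh4 this excess was 0.21, and 0.08 by its other probe set, both at signals within the poly-A control range. Over all probe sets this excess of the newborn array had a median of 0.09 at mean signals of 5 to 7, and 0.06 under 5. It was 0.0007 at 7 or more. The part of this offset in the 3 genes was not tested.

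The proteins that hold the cadherin tail did not follow 1 direction. Of 11 measured catenins and partners, 2 rose and 2 fell, against 9.8% and 14.5% of all genes. The median slope of the 11 was 0.22. Alpha-catenin Ctnna1, the link to actin, read 10.99, 11.69, 11.99, 12.11 and 12.15 and rose by 1.10 log2 (adjusted p = 0.0433, with slopes of −0.06 to 1.10 over its 3 probe sets). The actin-binding Lima1 rose by 1.78 (adjusted p = 0.0297), with 2 of 3 probe sets called and 0.31 as the lowest slope. The neural forms fell, alpha-N-catenin Ctnna2 with a slope of −0.73 (adjusted p = 0.0206) and delta-catenin Ctnnd2 with one of −1.81 (adjusted p = 0.00733). All values of Ctnna2 except the newborn one (5.38) lay within the range of the poly-A controls (2.65 to 5.23). Those of Ctnnd2 did from 50% colon on, so the sizes of both differences are uncertain.

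Catenins used in all tissues did not pass by their brightest probe set, Ctnna1 aside. Beta-catenin Ctnnb1 read 11.26 in the newborn and 11.95 in colon by its brightest probe set (adjusted p = 0.15), and 2 of its 3 probe sets passed, with slopes up to 1.28. p120-catenin Ctnnd1 read 6.60 and 7.09 (adjusted p = 0.0795), plakoglobin Jup 8.47 and 8.43 (adjusted p = 0.909) and vinculin Vcl 8.94 and 9.36 (adjusted p = 0.164). The p120 relatives Arvcf and Pkp4 had slopes of −0.80 (adjusted p = 0.0546, with 1 of 3 probe sets called) and 0.03 (adjusted p = 0.895), and the alpha-catenin-like Ctnnal1 one of 0.22 (adjusted p = 0.334).

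Among desmosome genes, which join cells to the keratin skeleton, 2 of 8 rose and 1 fell, against 9.8% and 14.5% of all genes. Desmocollin Dsc2 rose by 2.34 log2 (adjusted p = 0.031) and plakophilin Pkp2 by 1.60 (adjusted p = 0.0443), while Pkp1, of stratified epithelia, had a slope of −2.0 and fell (adjusted p = 0.00393). For Pkp2, 2 of 4 probe sets passed, with slopes of 0.16 to 1.87 over the 4. Desmoplakin Dsp, the link to keratin, read 10.54 and 10.69 (adjusted p = 0.591). Limma called none of the 6 other classical cadherins measured as rising, at an unadjusted p under 0.05 as well. Of the 6, 2 fell (14.5% of all genes did). These were the brain cadherins Cdh22 (−0.80, adjusted p = 0.0356) and Cdh10 (−0.61, adjusted p = 0.0233), with Cdh20 at 6.76 and 6.41 (adjusted p = 0.304). All 5 values of Cdh10 lay within the range of the poly-A controls, so the size of its difference is uncertain.

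Of 17 atypical cadherins and protocadherins, 1 rose and 3 fell, while 24.3% of all genes were called in either direction (9.8% rose and 14.5% fell). Pcdh1 rose by 0.93, and Celsr3, which guides axons, fell by 0.87 and Pcdh8 fell by 0.80. Cdhr5, which tethers the tips of brush border microvilli, read 9.52 in the newborn and 11.86 in colon (adjusted p = 0.0516). The values of Pcdh8, 4.66 to 3.79, also lay within the poly-A control range, with the same limit.

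Transcription factors and splicing factors known to act on Cdh1 or on epithelial identity went both ways, 2 of 11 rising and 3 falling. Over all genes, 9.8% rose and 14.5% fell. The mesenchymal repressors Twist2 and Twist1 had slopes of −2.54 and −1.75 log2, and Snai2 one of −0.82. Of the same list, Snai1 (slope 0.02, adjusted p = 0.911) and Zeb1 (−0.82, adjusted p = 0.0578) did not pass. Neither did Tcf3 (−0.48, adjusted p = 0.207) or Zeb2 (0.04, adjusted p = 0.849), the latter within the range of the poly-A controls. All values of Snai2 except the newborn one (5.73) lay within the poly-A control range, so the size of its difference is uncertain. Esrp1, an epithelial splicing factor, rose by 1.89 and the activator Grhl2 by 1.27 (0.08 at the lowest of its 4 probe sets). Esrp2 read 8.14 and 8.76 (adjusted p = 0.204). Of 4 genes for shedding and turnover of cadherins, limma called none in either direction (2 higher with colon at an unadjusted p under 0.05, against 19.8% of all genes), with Adam15 at 9.43 and 9.20 (adjusted p = 0.331).

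The listed epithelium markers lay on the side of Cdh1 and Cdh17, whereas most of the basal epidermis markers fell. Of the 10 epithelium markers, 4 rose and limma called none that fell, against 9.8% and 14.5% of all genes. At an unadjusted p under 0.05 the counts were 10 and 0, against 19.8% and 21.5%, and the median slope was 2.29. The membrane protease St14 rose by 2.35, Tjp3 by 2.18 and Spint1 by 2.15, and keratin Krt8 read 11.23 and 13.90 (adjusted p = 0.125). The 9 measured markers of colon epithelium were each at least 2-fold higher in the colon array, against 9.26% of all genes. Of the 9, 2 rose (9.8% of all genes did), the intestinal factors Cdx1 (slope 3.58) and Cdx2 (slope 3.13). The intestinal galectin Lgals4 read 11.40 and 13.92 (adjusted p = 0.129), and the summed intensity of the list was 11.97 log2 in the newborn and 15.71 in colon. Smooth muscle, the other bulk tissue of colon, had 3 of 8 markers rising, against 9.8% of all genes. Cnn1 rose by 2.26, Mylk by 1.68 and Acta2 by 0.74, and Tagln read 10.79 and 13.19 (adjusted p = 0.0603). The other Acta2 probe set had a slope of 0.13 and did not pass.

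**Figure D4:**
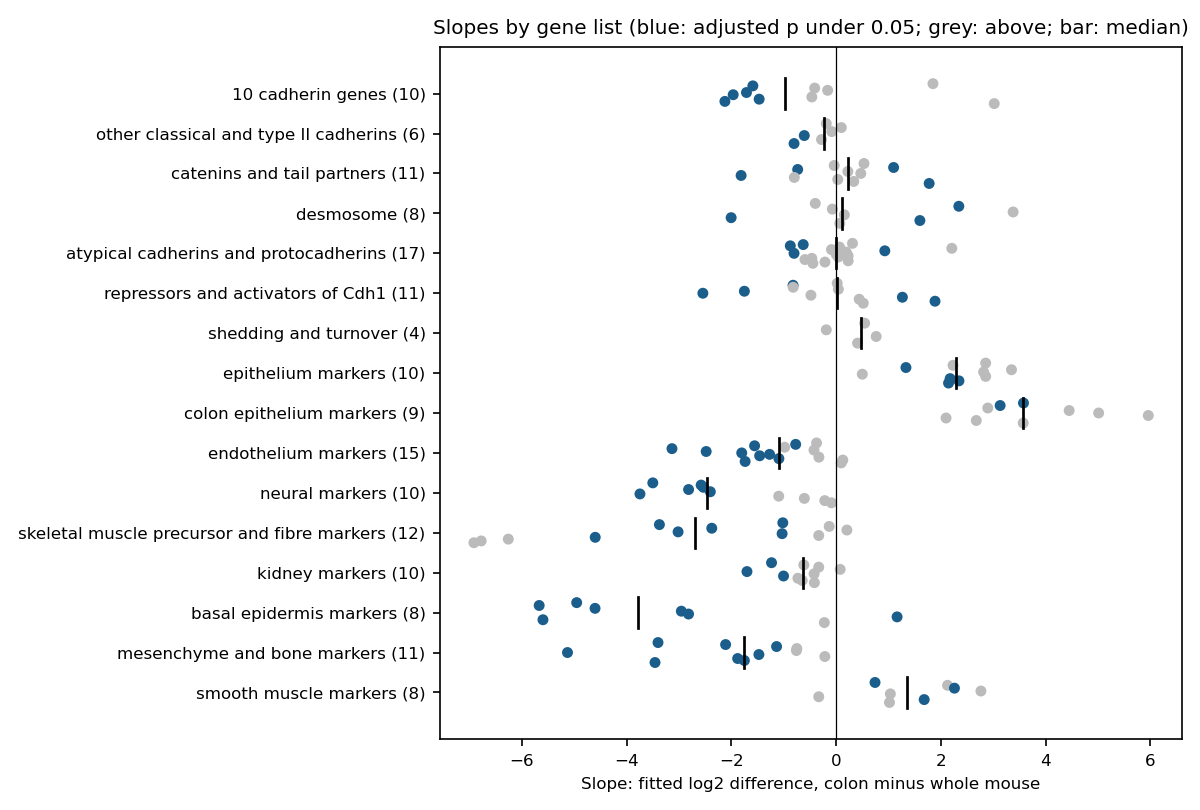
Slope on colon share (log2) of each measured gene by list, with the number of genes in brackets. Blue points passed an adjusted p of 0.05, grey points did not, and black bars are medians, −0.97 for the 10 cadherins, 2.29 for epithelium and −1.09 for endothelium.

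The genes whose profiles were closest to each cadherin over the 5 arrays were found among 12383 others by the root mean square difference of centred log2 signals. Closest to Cdh17 were Rhpn2 (0.05 log2), Hsd17b2 (0.07) and Tm4sf20 (0.07), and closest to Cdh1 were Fgl2 (0.07), Selenbp1 (0.09) and Ezr (0.10). Cdh2 lay nearest to Hmgn3 (0.02), Antxr1 (0.04) and Snhg6 (0.04). Cdh5 had Scel (0.05), Sgca (0.05) and Stab2 (0.05). For Cdh11 they were Alox12b (0.04), Hc (0.06) and Qk (0.07), for Cdh15 Stx2 (0.03), 1110008P14Rik (0.04) and Ahi1 (0.05), and for Cdh16 Ppp1r14c (0.02), Fez1 (0.04) and Serpina3n (0.04).

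Across the whole series, 4409 of 22626 probe sets passed, 1953 rising and 2456 falling, and centring the arrays on their medians turned this into 3148 and 2325. The array medians lay between 6.83 and 6.92 log2. With 1 array for each mix, precision is limited by how few arrays there were, and the p-values measure the spread of arrays of the same 2 pools around a straight line and not the spread between mice.

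**Figure D5:**
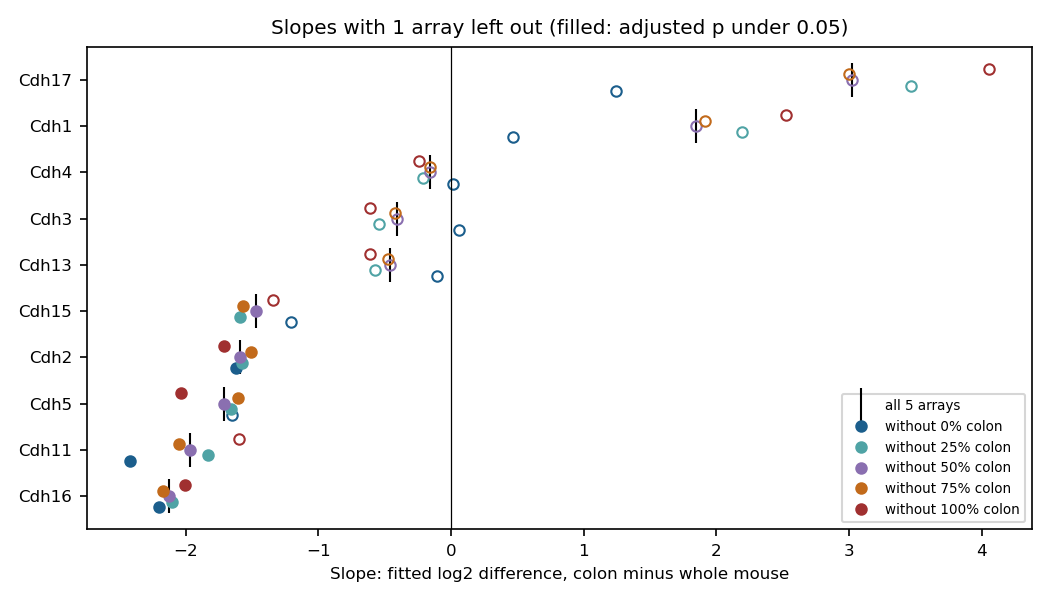
Slope of each cadherin with all 5 arrays (black bars) and with each array left out (circles, filled where the adjusted p was under 0.05). Cdh2 and Cdh16 are filled throughout, while the slopes of Cdh1 and Cdh17 shrink to 0.46 and 1.24 without the newborn array.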

How the data were processed

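The authors deposited log2 signals from RMA, per the submitters' processing notes (version not given in the sources used here), for 22690 probe sets on 5 arrays. The log2 scale was checked on the values. The 64 control probe sets were set aside and 22626 were tested, of which 20380 were paired with exactly 1 gene, 691 with several and 1555 with none listed. Names were updated through gene identifiers against RefSeq GRCm38.p6 (20351 matched). Among tested probe sets, 40.5% held tied values between arrays, as did 3 of the 11 cadherin probe sets.

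Samples were grouped by the colon share in their titles. Signal was regressed on colon share (0 to 1) across all probe sets with limma 3.58.1 in R 4.3.3 (lmFit and eBayes, 3 residual degrees of freedom, 2-sided), with Benjamini-Hochberg adjustment over all tested and a threshold of 0.05. The fit was also run on simulated data with straight log2 slopes, which cannot test the departure from a straight line that mixing gives. Undiluted differences and deviations from linear mixing were described by size.

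The cadherins and the gene lists were chosen with earlier results of these data known, so their counts are descriptions. Of each list, up to 3 called members with the largest slope and the brightest uncalled one are named, catenins and tail partners in full. Snai1, Snai2, Zeb1, Zeb2, Tcf3 and Grhl2 were named after their values were seen. By likeness, the 3 closest genes are named for cadherins at least 2-fold apart. Alternatives were each array left out, centring on array medians, linear intensity divided by its mean, a minimum mean signal of 6, eBayes with a trend, and the other probe sets of a gene.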

Additional observations from a re-analysis of the deposited data

How the results depend on the processing

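Of the 10 cadherin genes, 5 passed with all arrays, and between 3 and 5 did with an array left out. All of these fell, so the number falling was likewise 3 to 5. It was 3 without the newborn array (Cdh2, Cdh11 and Cdh16) and 3 without the colon array (Cdh2, Cdh5 and Cdh16). The number that rose was 0 with all arrays and 1, Cdh17, under each of array centring, linear intensity and the minimum mean signal of 6. These p-values therefore do not settle Cdh17, and that of Cdh1 missed the threshold in all 9 alternative fits. Over all probe sets, the number called went from 4409 to between 997 and 2998 with an array left out, the number rising from 1953 to between 168 and 1306 (3148 with centred arrays) and the number falling from 2456 to between 829 and 1692. Fits without an array have fewer residual degrees of freedom.

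The slope of Cdh3 ran from −0.61 to 0.059 and that of Cdh4 from −0.24 to 0.013 with an array left out, both changing sign without the newborn array, while that of Cdh13 ran from −0.61 to −0.10, smallest without the newborn array, and the other probe set of Cdh4 had a slope of 0.0054. The cause was not tested. Among the alternatives run, no other cadherin slope changed sign. Centring moved all 33 deviations from linear mixing by less than the spread over probe sets. The array medians (6.83 to 6.92 log2) lay too close together for a larger move, so this is no check of the deviations. That of Cdh1 at 25% colon went from 0.83 to 0.76, and the 95th percentile of 0.81 was taken without centring. The filter on mean signal left out Cdh3, Cdh4 and the dimmer Cdh5 probe set, which have no value under it.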
